A study of Mus musculus with 8 samples.

Results

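The cyclin-dependent kinase (CDK) inhibitors and the p53 pathway were described here through 10 genes in cardiomyocytes of newborn mice, out of 48440 entries of the deposited count table. The genes were taken by symbol and all 10 were found. They are the Cip/Kip inhibitors Cdkn1a and Cdkn1b, the INK4 inhibitors Cdkn2a, Cdkn2b, Cdkn2c and Cdkn2d, the p53 gene Trp53, and the p53 targets Mdm2, Ccng1 and Gadd45a. Of these 10, 8 had enough counts to be tested among 13771 genes, while Cdkn2a and Cdkn2b did not.

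Purified cardiomyocytes came from C57BL6/J pups at postnatal day 2, and each of 4 litters contributed a male and a female heart, which gave 8 libraries in 2 sex groups of 4. The labels name no genotype, transgene or treatment, and separate the samples by sex and litter. Total counts ran from 14226342 to 24910243 per library, lowest in the female of litter 3. Levels are given as CPM, the usual scaling of a count by its library's total, after TMM scaling, a correction for differences in RNA composition.

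A CDK inhibitor binds a cyclin-dependent kinase or its complex with a cyclin and so holds back the cell cycle. The INK4 proteins bind Cdk4 and Cdk6, the partners of the D cyclins, while the Cip/Kip proteins act on a wider set of complexes that includes Cdk2. The transcription factor p53 is stabilised by DNA damage and other stress, switches on Cdkn1a among many genes, and is held low by Mdm2, itself a p53 target. Mouse cardiomyocytes leave the cell cycle during the first days and weeks after birth, when these inhibitors have been studied as brakes on division.

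The promoter windows that bear on the results were read first. Each window is the 250 bases before a RefSeq transcript start on GRCm38.p6, the build that the submitters' processing notes name as mm10, and is printed on the strand of the gene. All 10 genes had at least 1 window and they had 13 in all, since Cdkn1a, Cdkn2a and Cdkn2c each had a second start. Windows were searched for the p53 response element, a 20-base consensus made of 2 adjoining half-sites of 10 bases, with at most 1 mismatch, on both strands (the consensus reads the same on either). The mismatch limit was chosen after the windows had been seen. Such an element stood in the windows of Cdkn1a and Ccng1 and of no other member, and in 25 of 32851 windows in the mouse table (0.0761%). The 2 windows are shown because these genes are the textbook p53 targets of the group, with the element in capitals.
Cdkn1a, upstream start, chr17:29090729-29090978 (+ strand): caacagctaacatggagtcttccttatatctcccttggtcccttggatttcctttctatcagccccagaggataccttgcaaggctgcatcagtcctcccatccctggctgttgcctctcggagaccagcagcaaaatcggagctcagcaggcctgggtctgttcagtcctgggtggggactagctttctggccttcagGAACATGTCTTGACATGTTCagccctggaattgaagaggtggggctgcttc
Ccng1, chr11:40755287-40755536 (- strand): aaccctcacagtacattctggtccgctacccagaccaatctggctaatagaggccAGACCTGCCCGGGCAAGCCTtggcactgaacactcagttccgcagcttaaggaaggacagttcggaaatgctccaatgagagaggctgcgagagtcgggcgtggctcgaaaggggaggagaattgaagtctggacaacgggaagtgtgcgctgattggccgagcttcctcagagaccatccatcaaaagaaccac
The element began 51 bases before the upstream start of Cdkn1a and 195 bases before the start of Ccng1, and each copy carried 1 mismatch. The 25 windows belonged to 25 genes, of which 5 were tested in these cardiomyocytes. Beside the 2 members these were Rps27l, also a p53 target, and Mthfd1 and Sptbn4. The second Cdkn1a window lay at chr17:29093519-29093768 and held no half-site.

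Mdm2, whose p53 elements are known from its first intron, is shown beside them because its level behaved differently. Its window held a single exact half-site, given in capitals, where 7.13% of all windows held at least 1. Single half-sites also stood in the windows of Trp53, Gadd45a and Cdkn2d.
Mdm2, chr10:117710759-117711008 (- strand): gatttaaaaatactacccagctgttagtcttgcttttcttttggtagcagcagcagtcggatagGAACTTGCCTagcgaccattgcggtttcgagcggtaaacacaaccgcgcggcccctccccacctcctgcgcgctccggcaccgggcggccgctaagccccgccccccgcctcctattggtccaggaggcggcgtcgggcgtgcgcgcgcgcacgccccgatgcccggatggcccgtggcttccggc
The windows of the INK4 genes Cdkn2c and Cdkn2d are shown because both genes moved between litters in the same direction. Here the capitals mark GC boxes, the letters GGGCGG on either strand, which factors of the Sp family bind.
Cdkn2c, chr4:109666757-109667006 (- strand): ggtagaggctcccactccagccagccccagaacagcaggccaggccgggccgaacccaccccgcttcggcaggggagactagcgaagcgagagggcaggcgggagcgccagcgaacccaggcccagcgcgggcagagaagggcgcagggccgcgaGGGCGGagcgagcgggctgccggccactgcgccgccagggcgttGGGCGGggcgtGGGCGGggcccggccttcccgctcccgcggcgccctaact
Cdkn2d, chr9:21291210-21291459 (- strand): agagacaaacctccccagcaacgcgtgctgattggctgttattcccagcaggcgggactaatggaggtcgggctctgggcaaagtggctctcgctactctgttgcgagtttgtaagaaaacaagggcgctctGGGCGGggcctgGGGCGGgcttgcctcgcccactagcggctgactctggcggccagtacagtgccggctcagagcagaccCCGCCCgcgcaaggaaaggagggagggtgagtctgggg
Each of these windows held 3 GC boxes, and the second Cdkn2c window, at chr4:109665373-109665622, held 0. At least 1 box stood in 32.7% of all windows, and the share with 3 was not counted. GC boxes were not particular to these genes. They also stood in the windows of Mdm2 (2, not marked above), Cdkn1b (1) and Gadd45a (1). The upstream Cdkn2a window and the second Cdkn1a window held 2 each. These are matches of letters and were not tested as binding sites.

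Levels were then compared between the genes per kilobase of annotated exon sequence. Ccng1, which encodes cyclin G1, was by far the highest at 109 ± 11 CPM per kb (SD, n = 8 libraries). Next came Cdkn1b (the gene of p27) at 15.9 ± 2.9, Cdkn2d (p19INK4d) at 13.8 ± 2.4 and Mdm2 at 13 ± 0.4 CPM per kb, which overlapped in their ranges. Cdkn2c (p18INK4c) at 6.1 ± 1.9, Trp53 at 5.81 ± 0.73, Cdkn1a (p21) at 5.34 ± 0.72 and Gadd45a at 4.86 ± 0.83 CPM per kb overlapped as well, and the order within these sets is not larger than the spread between libraries. The kinases that the inhibitors hold were at 33.6 CPM per kb for Cdk4, 6.3 for Cdk6 and 9.58 for Cdk2.

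Cdkn2b and Cdkn2a, the pair of INK4 genes that share a locus on chromosome 4, were near the floor. Cdkn2b (p15INK4b) had 6, 5, 0 and 1 counts in the males of litters 1 to 4, and 5, 5, 2 and 3 counts in the females. Cdkn2a, which encodes p16INK4a and p19ARF from different starts, had 0, 1, 0 and 6 counts in males and 2, 4, 0 and 2 counts in females. A floor of 3 counts corresponds to between 0.12 and 0.206 CPM per library, and this limit covers counting error only. Within the INK4 family the RNA was thus that of Cdkn2c and Cdkn2d, with 2910 and 3849 counts over the 8 libraries against 27 for Cdkn2b and 15 for Cdkn2a. No fold between sexes or litters is given for the latter pair.

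**Figure D1:**
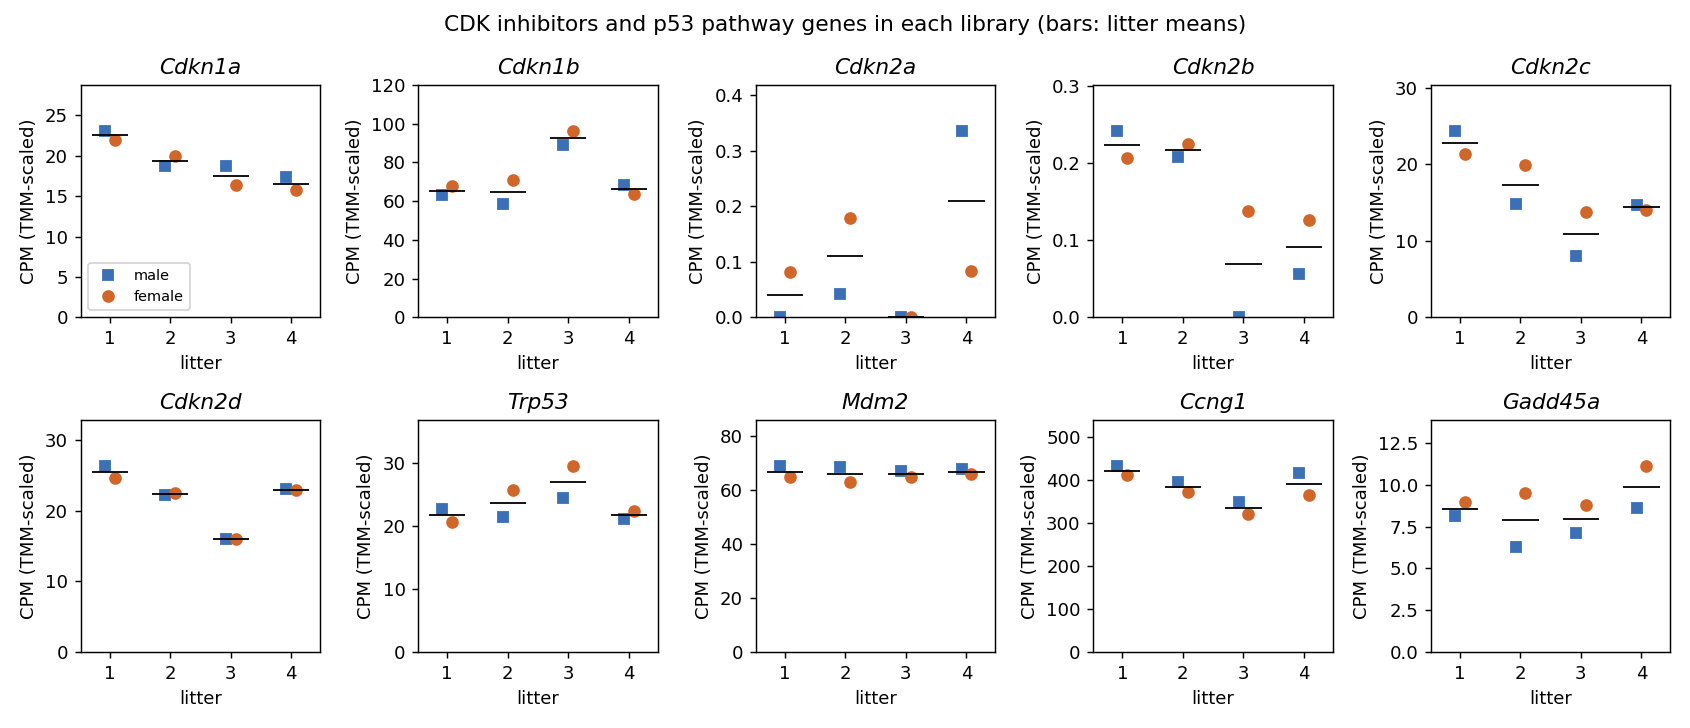
TMM-scaled CPM of each of the 10 genes (y axis, from 0) in the 4 litters (x axis), with squares for males, circles for females and a bar for the mean of each litter. Cdkn1b stood highest in litter 3, Cdkn2c, Cdkn2d and Ccng1 lowest there, and Mdm2 lay between 62.9 and 68.7 CPM in all 8 libraries.

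The comparison of litters asked whether the inhibitors and p53 targets differed between sibling pairs. In the test of the 4 litters together, 5 of the 8 tested genes passed: Cdkn1a, Cdkn1b, Cdkn2c, Cdkn2d and Ccng1. Across all genes 32.1% passed (edgeR's quasi-likelihood test with sex as a term, adjusted p under 0.05). The median range over litters was 0.389 on the log2 scale for the 8 genes and 0.374 for all genes tested. The members lay far apart within this, from Mdm2 near the bottom of all tested genes to Cdkn2c, whose range was at or above that of 89.9% of them. Trp53, Mdm2 and Gadd45a did not pass. Cdkn1a lost this call in 6 of 19 alternatives, DESeq2 among them (adjusted p = 0.0918), and Ccng1 in 7 of 19, among them the fit without the sex term (0.0786). With litter 3 left out 2 members passed, and with litter 1 left out 3 passed. In single litters, 4 members were called higher in litter 1 (7.86% of all genes) and 0 lower (5.41%), 2 higher (13.6%) and 3 lower (14.8%) in litter 3, and 0 in litter 2 (4.18%) and litter 4 (10.5%). In CPM, litter 3 did not overlap the other litters for 4 of the 8 genes, as for 31.6% of all genes. With CPM on library size alone, a check added after the data were seen, this count was 2 (Cdkn1b and Cdkn2d), and 32.5% of all genes. The labels give no preparation date, so effects of litter and of the preparation cannot be told apart, and in these bulk samples fewer cells of a type and less RNA per cell cannot be told apart either. The litter p-values rest on the spread left after the litter and sex terms (3 residual degrees of freedom). Each litter gave a single heart of each sex, so the spread between hearts of the same litter and sex was not measured.

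Cdkn1b, the Cip/Kip inhibitor known to accumulate in cells that leave the cycle, was higher in litter 3. It had 63.2, 58.8, 88.9 and 68.6 CPM in the males of litters 1 to 4 and 67.6, 71, 96 and 63.8 CPM in the females. Both litter 3 libraries lay above all other 6, which ran from 58.8 to 71 CPM. Against the mean of the other 3 litters Cdkn1b rose by 0.50 on the log2 scale in litter 3 (SE 0.07, edgeR adjusted p = 0.000434), with 13.6% of all genes called higher there. The difference between litters rested on litter 3: with that pair left out the range fell from 0.51 to 0.03 on the log2 scale (adjusted p = 0.96).

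Cdkn1a, the inhibitor most directly under p53, did not follow Cdkn1b. Its males had 23, 18.7, 18.7 and 17.4 CPM and its females 22, 20, 16.4 and 15.7 CPM in litters 1 to 4. Litter 1 was the highest in both sexes and did not overlap the other litters, as in 17.6% of all genes tested. In litter 1 Cdkn1a rose by 0.34 (SE 0.08, edgeR adjusted p = 0.0203), with 7.86% of all genes called higher there. This call was lost without either litter 1 library (0.198 and 0.23), without litter 4 (0.0537) and in DESeq2 (0.0648), while the size stayed between 0.285 and 0.4. In litter 3, where Cdkn1b was highest, the difference of Cdkn1a was -0.13 (SE 0.09, adjusted p = 0.288). An uncharacterised transcript on the opposite strand, AC167363.2, covers 7.68% of the exon bases of Cdkn1a, and whether counting used the strand is not given in the sources used here.

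Cdkn2c had the widest range of the group, 1.12 on the log2 scale. It had 24.3, 14.8, 8.03 and 14.7 CPM in males and 21.4, 19.9, 13.8 and 14.1 CPM in females of litters 1 to 4. In TMM-scaled CPM litter 1 was above and litter 3 below every other library, while by library size alone the female of litter 3 (14.1 CPM) lay above both litter 4 libraries (14 and 13.6 CPM). In TMM-scaled CPM the mean of litter 1 was 2.09-fold that of litter 3. Cdkn2c was higher in litter 1 by 0.74 (SE 0.14, edgeR adjusted p = 0.00593) and lower in litter 3 by -0.75 (SE 0.16, adjusted p = 0.00561). Male and female of litter 3 differed from each other, and without the male the litter 3 value was -0.396 (adjusted p = 0.149), while without the female it was -1.13 (adjusted p = 0.00128). The litter 1 call was likewise lost without the male of litter 1 (0.455, adjusted p = 0.22).

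Cdkn2d, the other INK4 gene with usable counts, moved the same way with closer agreement of the sexes. Males had 26.3, 22.2, 16 and 23.1 CPM and females 24.7, 22.5, 16 and 22.9 CPM in litters 1 to 4. Both litter 3 libraries lay below the other 6, which ran from 22.2 to 26.3 CPM, and both litter 1 libraries lay on top. Litter 3 was lower by -0.56 (SE 0.08, edgeR adjusted p = 0.00044), with 14.8% of all genes called lower there, and litter 1 higher by 0.34 (SE 0.07, adjusted p = 0.0114). The litter 1 call was lost without either litter 1 library (0.235 and 0.104) and, at 0.169, without litter 3 (0.226). Without litter 3 the range over litters fell from 0.67 to 0.19 (adjusted p = 0.299).

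**Figure D2:**
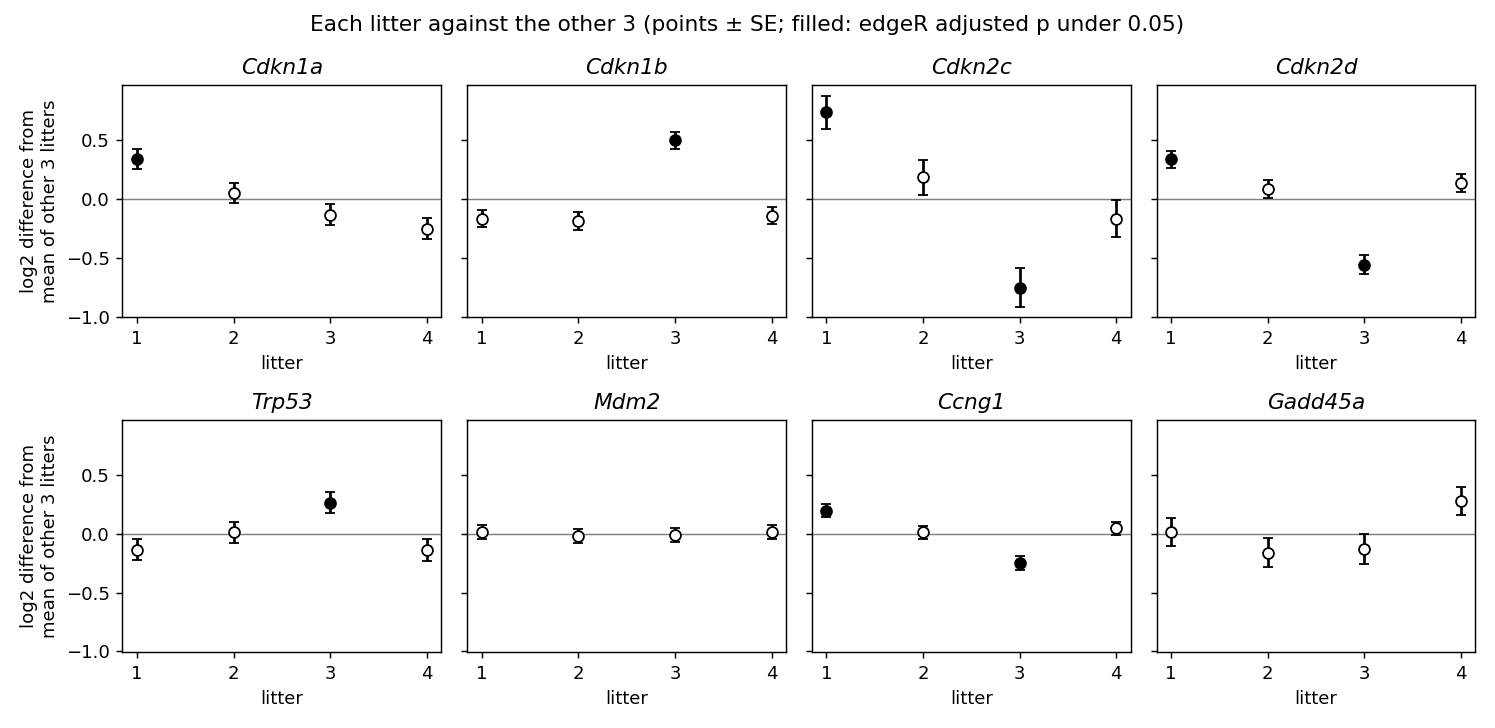
Log2 difference of each litter from the mean of the other 3 (y axis) for the 8 tested genes, with SE bars and filled points where the edgeR adjusted p is under 0.05. Litter 3 was at 0.50 for Cdkn1b and at -0.75, -0.56 and -0.25 for Cdkn2c, Cdkn2d and Ccng1, and every Mdm2 point lay within 0.02 of 0.

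The balance between the Cip/Kip inhibitor Cdkn1b and the INK4 inhibitor Cdkn2c differed most in litter 3. Per kilobase of exon, the ratio of Cdkn1b to Cdkn2c was 6.53 for the litter 3 male and 4.1 for the litter 3 female. In the other 6 libraries it ran from 1.53 in the male of litter 1 to 2.75 in the male of litter 4. A ratio of 2 genes in 1 library does not depend on how libraries are scaled. The ratio of Cdkn1b to Cdkn1a was also highest in litter 3, at 3.71 and 4.57 against 2.14 to 3.17.

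Genes that rise in dividing cells changed with litter as well. All 15 genes of a proliferation list passed the litter test, against 32.1% of all genes. In litter 3, 15 were lower (14.8% of all genes), with a median of -1.6 against 0.000127 for all genes, and in litter 1, 15 were higher (7.86%), with a median of 1.26. Their summed level was 587 to 677 CPM in litter 1, 399 to 447 in litter 2, 346 to 371 in litter 4 and 160 to 200 in litter 3. Mki67, a marker of cycling cells, differed by 1.30 in litter 1 and -1.60 in litter 3, and Cenpf, Ccnb2 and Tpx2 by -1.86 to -2.01 in litter 3. Cdkn2c and Cdkn2d were lowest, and Cdkn1b highest, in the litter where these genes were lowest. Cdkn1a was as high in the male of litter 3 (18.7 CPM) as in the male of litter 2 (18.7 CPM), although the proliferation sums were 160 and 399 CPM. In the females Cdkn1a was lower in litter 3 (16.4 CPM) than in litter 2 (20 CPM), with proliferation sums of 200 and 447 CPM.

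**Figure D3:**
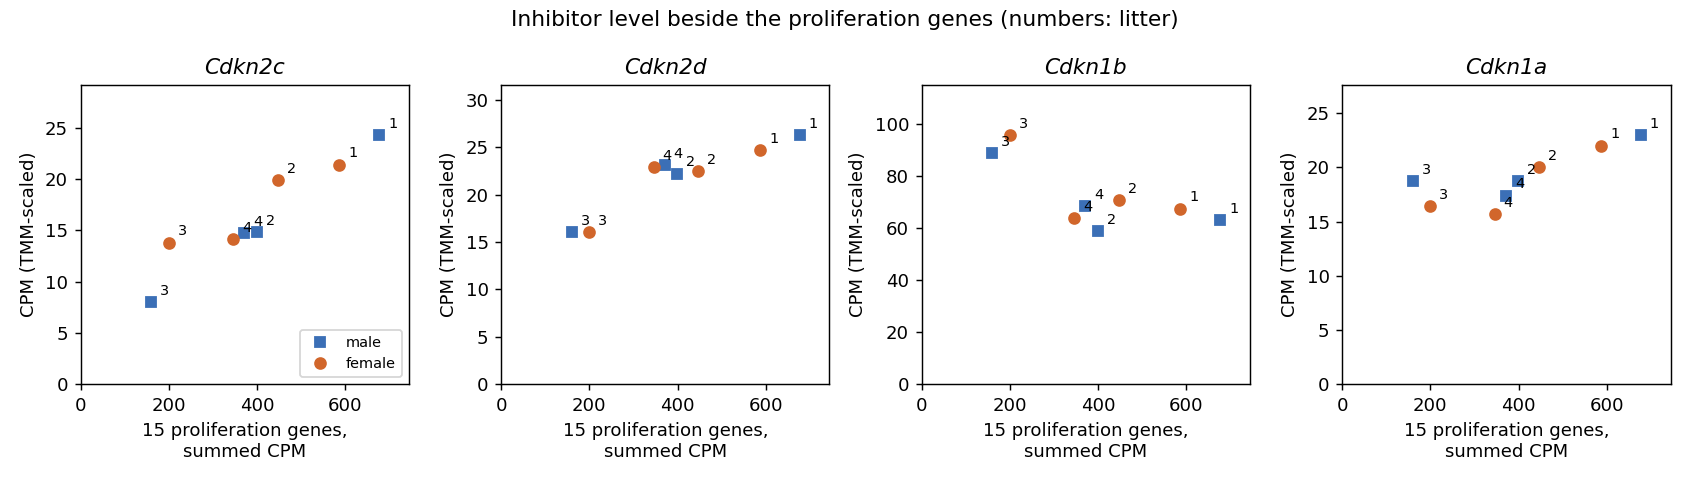
TMM-scaled CPM of Cdkn2c, Cdkn2d, Cdkn1b and Cdkn1a (y axes, from 0) against the summed CPM of 15 proliferation genes (x axis) in 8 libraries, with squares for males, circles for females and the litter number beside each point. The litter 3 libraries, at 160 and 200 CPM of proliferation genes, hold the lowest Cdkn2c and Cdkn2d and the highest Cdkn1b values.

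The partners that the inhibitors bind were examined in the same test, and 8 of 11 cyclins and kinases passed between litters, against 32.1% of all genes. Of the 11, 6 were lower in litter 3 (14.8% of all genes) and 0 higher (13.6%), while 7 were higher (7.86%) and 1 lower (5.41%) in litter 1. These counts include Ccne1, a cyclin of the start of S phase, which passed in both litters but not in the test of the 4 litters together (adjusted p = 0.0506). Ccnd3, the cyclin D3 gene, was the one lower in litter 1, at -0.22 (adjusted p = 0.0417). The median in litter 3 was -0.56. Ccna2 and Ccnb1, cyclins of the S and M phases, fell by 1.79 and 2.42 in litter 3, and Cdk1, the mitotic kinase, by 1.12 (SE 0.16, edgeR adjusted p = 0.000393). Cdk6 was higher in litters 1 and 2, by 0.33 in each, and lower in litter 4 by -0.55. Cdk4, the main INK4 partner by level, had a range of 0.24 and an adjusted p of 0.154, and Cdk2 a range of 0.19 and 0.262.

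Markers of other cell types differed along with these genes, where 14.8% of all genes were lower and 13.6% higher in litter 3. Of 11 fibroblast markers 8 were lower in litter 3, with summed levels of 159 to 173 CPM there and 224 to 445 CPM in the other litters. Of 11 endothelial markers 8 were lower, though the sum of 25.5 CPM lay within the 22.5 to 193 CPM of the others. Mural markers were lower for 5 of 8, at 898 to 921 against 1340 to 1520 CPM. Acta2 and Abcc9, with means of 750.8 and 459.7 CPM over the 8 libraries, made up most of this sum. Acta2 was lower in litter 3 by -1.305, while Abcc9 differed by 0.08 and was not called. Pdgfrb, Rgs5, Myh11 and Notch3 were lower too, at means of only 2.96 to 4.94 CPM. Cardiomyocyte markers were lower for 7 of 12, and their sums were 84800 and 85600 CPM in litter 3 and 98400 to 112000 CPM elsewhere, so the labelled cell type was plain in every library. Some sums were higher in litter 3. Atrial markers summed to 1330 and 1620 CPM there and 216 to 839 CPM elsewhere, with 2 of 6 higher, 1 lower and a median of -0.225. Nppa, the natriuretic peptide A gene, made up most of this sum and was higher by 2.26 (edgeR adjusted p = 2.14e-05). Epicardial markers summed to 23.5 and 23.6 CPM against 14.3 to 19.5 CPM, with 1 of 6 higher, 2 lower and a median of -0.46. Erythroid markers were higher for 2 of 6 and lower for 0, with a median of 0.942. Their sum was 532 CPM in the male of litter 3 and 185 CPM in the female, against 98.6 to 247 CPM elsewhere. Immediate-early genes, which respond to tissue handling, were higher for 11 of 16 and lower for 2 in litter 3 (1420 to 1530 against 440 to 735 CPM in sum). Glucocorticoid response genes were higher for 6 of 9 and lower for 0. Of the defining macrophage markers 7 of 9 were under 10 counts in every library. In litter 1, where 4 members were higher, 6 of 16 immediate-early and 5 of 9 glucocorticoid response genes were lower (5.41% of all genes), and 4 of 12 cardiomyocyte and 3 of 11 fibroblast markers were higher (7.86%). In litter 2, 11 of 11 endothelial, 8 of 11 fibroblast and 4 of 8 mural markers were higher. Immediate-early genes were lower there for 9 of 16 and higher for 0 (4.18% of all genes were called in either direction). Mitochondrial genes took 18.5% of counts in the male of litter 4 and 13.4 to 15.2% in the other libraries. The part of cell composition and handling in the differences of the inhibitors and their partners was not tested.

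Trp53, the gene of p53 itself, had 22.7, 21.5, 24.4 and 21.2 CPM in males and 20.7, 25.7, 29.5 and 22.4 CPM in females of litters 1 to 4. Libraries of litter 3 and litter 2 overlapped. Trp53 did not pass the litter test (range 0.30, edgeR adjusted p = 0.129). Its difference in litter 3 alone was 0.26 (SE 0.09, adjusted p = 0.0488) and stood just inside the threshold. Without the female of litter 3 it was 0.159 (adjusted p = 0.442). It missed the threshold in 11 of 17 alternative fits, and over all 17 the litter 3 value ran from 0.159 to 0.368.

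Mdm2, the ubiquitin ligase that marks p53 for degradation, had the smallest range between libraries among the 8 tested members. Males had 68.7, 68.5, 67.1 and 67.5 CPM and females 64.7, 62.9, 64.8 and 65.9 CPM, so that the highest library was 1.09-fold the lowest. The range over litters was 0.0231 on the log2 scale (edgeR adjusted p = 0.987), and 14 of 13771 genes, Mdm2 included, had a range as small. Under the alternatives the range ran from 0.0146 to 0.0732. The ratio of Mdm2 to Trp53 per kilobase was lowest in the female of litter 3 at 1.75 and highest in the male of litter 2 at 2.54.

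**Figure D4:**
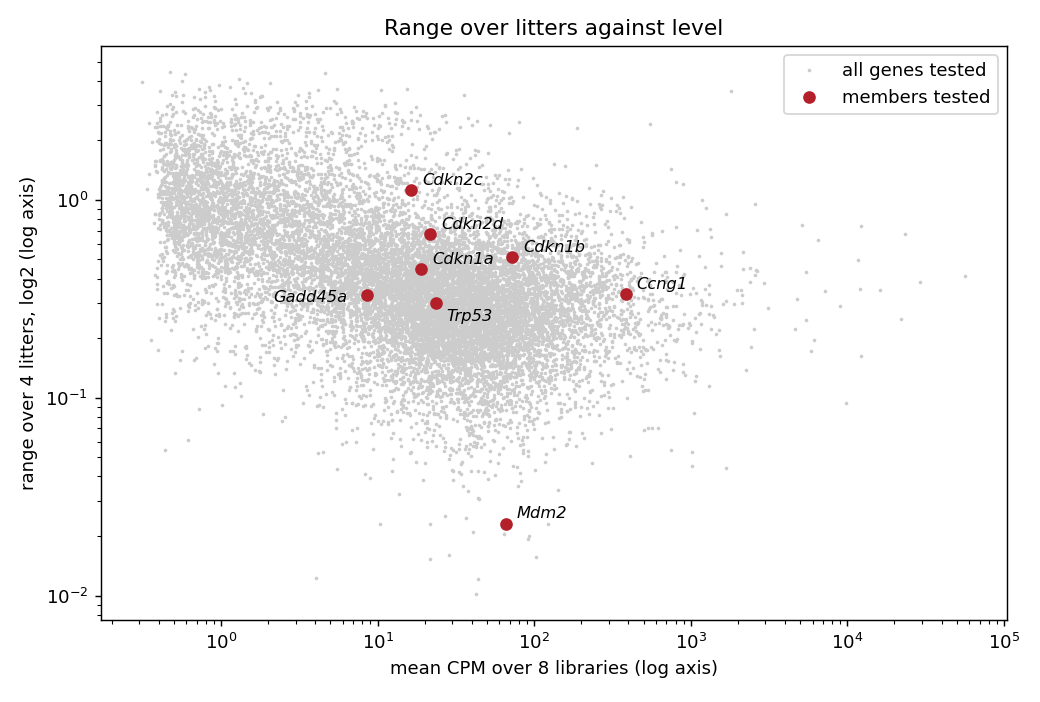
Range over the 4 litters on the log2 scale (y axis, log axis) against mean CPM over 8 libraries (x axis, log axis) for all 13771 tested genes in grey and the 8 tested members in red. Mdm2 lies near the bottom at 0.0231 and Cdkn2c is the highest member at 1.12.

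Ccng1, a p53 target whose product works with protein phosphatase 2A, was lowest in litter 3, as the INK4 genes Cdkn2c and Cdkn2d were. Males had 433, 396, 349 and 418 CPM and females 412, 372, 322 and 365 CPM in litters 1 to 4. Both litter 3 libraries lay below the other 6, which began at 365 CPM, although by library size alone the male of litter 3 (357 CPM) lay above the female of litter 4 (354 CPM). Ccng1 was lower in litter 3 by -0.25 (SE 0.06, edgeR adjusted p = 0.00645) and higher in litter 1 by 0.19 (SE 0.05, adjusted p = 0.0354). These are small differences read from 4677 to 10781 counts. Of the alternatives 2 of 17 lost the litter 3 call, without the male (0.0622) or the female (0.0674) of that litter, and 6 of 17 the litter 1 call, which reached an adjusted p of 0.423 without the female of litter 1. The male of litter 4 (418 CPM) lay above the female of litter 1 (412 CPM), so litter 1 overlapped the rest in TMM-scaled CPM but not by library size alone.

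Gadd45a, a stress protein that binds PCNA and Cdk1, had the lowest counts among the tested members. Males had 8.11, 6.28, 7.12 and 8.6 CPM and females 8.97, 9.53, 8.81 and 11.1 CPM in litters 1 to 4, from 128 to 265 counts. All 4 females lay above all 4 males. Litters did not differ past the threshold (range 0.33, edgeR adjusted p = 0.261). On the opposite strand, the transcript E230016M11Rik covers 19.1% of the exon bases of Gadd45a and had 34 to 66 counts, so that part of the level is uncertain.

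The comparison of sexes asked which of these genes differ between male and female hearts. None of the 8 tested genes passed, against 0.0436% of all genes (edgeR's quasi-likelihood test without a litter term), and 1 had an unadjusted p under 0.05, against 2.22% of all genes. Compared within litters, 0 passed as well, against 0.211% of all genes, and 2 (Gadd45a and Ccng1) had an unadjusted p under 0.05, against 11.6%. DESeq2 and limma voom also called 0. Gadd45a had the largest difference of the 8. Males averaged 7.53 ± 1.04 CPM and females 9.61 ± 1.06 CPM (SD, n = 4). The log2 difference, male minus female, was -0.36 (SE 0.14, unadjusted p = 0.0295, adjusted p = 1). In all 4 sibling pairs the male was below the female, with log2 differences from -0.595 to -0.143. Within litters, the value was -0.35 (SE 0.11) with an unadjusted p of 0.00623 and an adjusted p of 0.295, where 11.6% of all genes had an unadjusted p under 0.05.

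Mdm2 and Ccng1 were higher in the male of all 4 litters, by small amounts. Males averaged 67.9 ± 0.798 CPM of Mdm2 and females 64.6 ± 1.26 CPM (SD, n = 4). The sexes did not overlap in TMM-scaled CPM, but by library size alone the male of litter 4 (64.1 CPM) lay below the females of litters 1 and 3 (64.9 and 66.2 CPM). The log2 fold change was 0.07 (SE 0.06, edgeR adjusted p = 1). Ccng1 had 399 ± 36.5 and 368 ± 36.8 CPM, a difference of 0.12 (SE 0.10, adjusted p = 1). Within litters it was 0.12 (SE 0.05, edgeR unadjusted p = 0.0283, adjusted p = 0.384). The same direction in all 4 pairs was found in 3 of the 8 genes and in 20.3% of all genes, and sexes that did not overlap in 2 of the 8 and in 2.07% of all genes, or in 1 of the 8 (Gadd45a) and 1.99% of all genes by library size alone.

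Markers of other cell types also differed between the sexes within litters. Of 11 fibroblast markers 6 were higher in males in the fit with litter as a block, among them Dcn, the decorin gene, by 1.14 (edgeR adjusted p = 0.000315). That fit called 29 of all 13771 genes (0.211%), 21 of them higher in males. Fibroblast markers were thus called far more often than genes at large. The fibroblast sums were 173 to 445 CPM in males and 159 to 378 CPM in females, higher in the male of each litter. The endothelial marker Cldn5 was lower in males by -2.21 (adjusted p = 0.0259), 1 of 11 to pass, and the median sex difference of the atrial markers was 0.909, with 0 of 6 past the threshold. None of these markers passed without the block, and their part in the values of Gadd45a, Mdm2 and Ccng1 was not tested.

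The inhibitors themselves showed no sex difference past the threshold. Log2 fold changes, male minus female, were 0.07 (SE 0.13) for Cdkn1a, -0.09 (SE 0.16) for Cdkn1b, -0.16 (SE 0.29) for Cdkn2c and 0.02 (SE 0.17) for Cdkn2d. Trp53 had -0.13 (SE 0.12). These come from the fit without a litter term. Within litters the values were 0.07 (SE 0.07), -0.09 (SE 0.06), -0.20 (SE 0.13) and 0.02 (SE 0.07) for the inhibitors in the same order. Trp53 had -0.12 (SE 0.08) within litters, and the edgeR adjusted p-values of these genes ran from 0.57 to 0.93. Cdkn1a and Cdkn2c were higher in the male of 3 and 2 litters of 4.

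**Figure D5:**
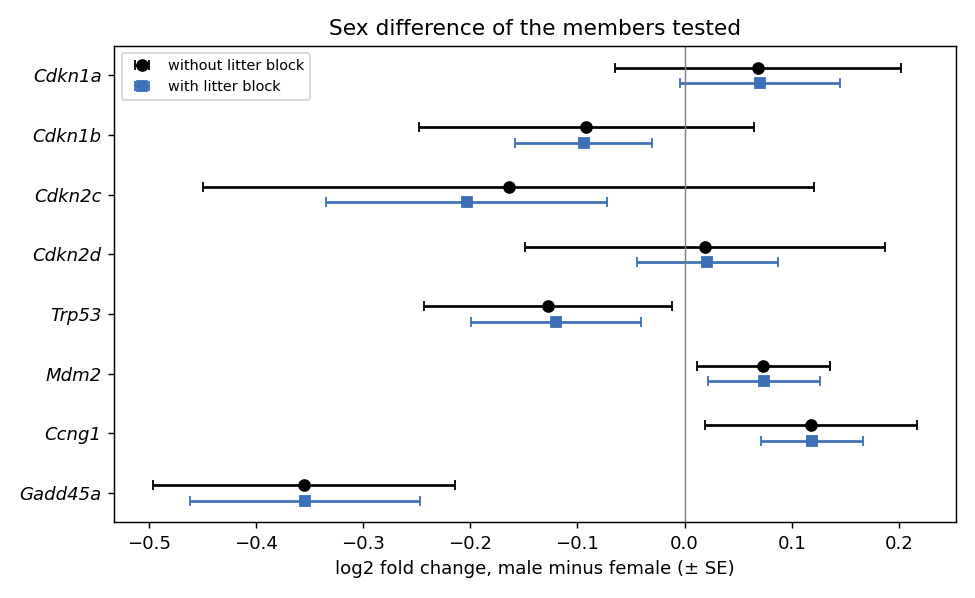
Log2 fold change, male minus female, with SE bars (x axis) for the 8 tested genes, without a litter term in black and compared within litters in blue. Gadd45a lies at -0.36 and -0.35, and no gene passes the adjusted threshold.

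Other genes of the pathway were read from lists. Of 36 further p53 targets 35 were tested and 10 passed between litters (28.6%, against 32.1% of all genes), while 7 were higher (13.6% of all genes) and 5 lower (14.8%) in litter 3 by itself, with a median there of 0.126. Btg2, an antiproliferative gene that also belongs to the immediate-early response, was higher in litter 3 by 1.55 (SE 0.09, edgeR adjusted p = 1.32e-06). Trp53inp1, which encodes a p53-induced nuclear protein, and Xpc, a DNA damage sensor, were each higher there by 0.60, while Gtse1, a regulator of p53 that is made in the G2 phase, was lower by -1.69. No p53 target passed between the sexes, and 0 did so within litters.

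Of 15 tested regulators of p53, 8 passed between litters (53.3%, against 32.1% of all genes). In litter 3, 2 of the 15 were higher (13.6% of all genes) and 1 lower (14.8%), and in litter 4, 2 were higher and 3 lower (10.5% of all genes called in either direction). Hipk2, a kinase of p53, was lower in litter 4 by -1.11 (SE 0.09, edgeR adjusted p = 0.00027), and Chek1, the replication checkpoint kinase, was lower in litter 3 by -0.93 and higher in litter 1 by 0.86. Ep300 and Sirt1, which add and remove acetyl groups on p53, were higher in litter 3 by 0.31 and 0.43, and Ep300 was lower in litter 4 by -0.38 (adjusted p = 0.00888). Mdm4, the partner of Mdm2, had a range of 0.25 and an adjusted p of 0.0755.

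Genes that control the inhibitors made up the last list, of which 10 of 21 passed between litters (47.6%, against 32.1% of all genes). In litter 3, 4 of the 21 were higher (13.6% of all genes) and 5 lower (14.8%). Skp2, the receptor of the ubiquitin ligase that degrades p27, was lower in litter 3 by -0.98 (edgeR adjusted p = 0.0038), the litter in which Cdkn1b RNA was highest. Cdc20, an activator of the anaphase-promoting complex, fell by 1.97 there and Ezh2, the Polycomb methyltransferase that represses the Cdkn2a locus, by 0.46. Tbx2, a repressor of Cdkn2a, was higher by 0.87. No member of this list passed between the sexes.

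Genes whose pattern over the 8 libraries was most like each member were named by the root mean square difference of log2 CPM after centring each gene on its mean. Nearest to Cdkn1a were Dctd (0.0496), Snap91 (0.0526) and Kif21a (0.0541), where the median of all genes was 0.262. Nearest to Cdkn1b were Fcho2 (0.0385), Etv3 (0.0575) and Ccnl1 (0.0588), with a median of 0.292. Nearest to Cdkn2c were A930001C03Rik (0.111), Mastl (0.143) and Tsix (0.143), with a median of 0.501, although the first was at 0.217 to 0.675 CPM. Nearest to Cdkn2d were Ddx39 (0.0308), Hnrnpa2b1 (0.0387) and Apmap (0.0443), with a median of 0.319. Nearest to Ccng1 were Actr3 (0.0109), Utp6 (0.0304) and Gtf2f2 (0.0369), with a median of 0.234.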

How the data were processed

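RNA was sequenced from 8 samples of purified cardiomyocytes, single end, with a stranded kit for total RNA per the labels' protocols, although the labels also give the molecule as poly(A) RNA. Raw counts, 1 column a sample and 1 row a gene symbol, were deposited by the authors in a single table that held 0 columns of other samples. STAR 2.7.3a and the build mm10 are named in the submitters' processing notes. The counting program, the annotation and the strand setting are not given in the sources used here.

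From these counts, genes were kept with filterByExpr on sex (minimum count 10) and scaled by TMM in edgeR 4.0.16 (R 4.3.3). For sex (male minus female) edgeR's quasi-likelihood test used no litter term (6 residual degrees of freedom). The litter test and each litter against the mean of the other 3 came from a fit with litter and sex (3 residual degrees of freedom), and those contrasts share libraries. P-values were adjusted by Benjamini-Hochberg over all 13771 genes, with a threshold of 0.05. SEs are the log2 difference divided by the square root of F. DESeq2 1.42.0 and limma 3.58.1 (voom), other scalings and filters, and fits without single libraries or litters were alternatives. Scripts were tested on simulated counts.

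The labels' replicate number is the litter, so it pairs a male with a female. Deviations from the sex means correlated at 0.367 to 0.696 within litters and at -0.482 to 0.27 between litters, across genes, which are not independent replicates. For sex, blocking on litter was an alternative. Libraries of 1 sex differed by 9.56 to 44.9 in chi-square per degree of freedom, so no library repeated another.

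Gene coordinates and exon lengths are from GENCODE M21 on GRCm38. Named genes were the 10 members, up to 4 genes of each further list with the smallest litter p-value past the threshold, and the 3 most similar genes of each member past the litter test. Cdk2, Cdk4, Ccnd3, Ccne1, Mdm4, Nppa, Acta2, Abcc9, Pdgfrb, Rgs5, Myh11, Notch3, Dcn and Cldn5 were named besides, after their values were seen. So was the litter 3 value of Trp53. Members, lists and tests were chosen with earlier results of these data known.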

Additional observations from a re-analysis of the deposited data

How the results depend on the processing

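For the members, 125 of 153 alternative values of single litters and 143 of 152 sex values kept direction and side of the threshold, and 137 of 152 litter ranges, which have no direction, kept their side. The values of single litters were taken only for members called in that litter by the main fit. A reversal was therefore unlikely from the outset, and none occurred. The sex value of Cdkn2d (0.02) reversed to -0.00784 in limma voom. With libraries or litters left out, sex values that reversed in at least 1 case ran from -0.102 to 0.144 for Cdkn2d, -0.0208 to 0.164 for Cdkn1a, -0.229 to 0.0429 for Cdkn1b and -0.472 to 0.0519 for Cdkn2c. The cause was not tested.

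The count of members past the litter test ran from 2 to 5 with libraries or litters left out. Without single libraries or litters, all genes called ran from 5 to 8 for sex and from 1898 to 4586 for litter. For single litters they ran from 359 to 2906 (litter 1), 153 to 1407 (litter 2), 1704 to 4177 (litter 3) and 322 to 1984 (litter 4). Where a litter keeps 1 library, that library is assumed to vary like the others. With the replicate block the sex count was 29 in place of 6, and it changed the call of no member. Without the low-count filter and with a mean of at least 50 counts, the litter 2 count was 1249 and 345 in place of 575. With library size alone, litter 3 had 2419 of 4117 calls higher, against 1871 of 3903, and litter 4 had 262 of 1763, against 648 of 1447. Depth limits Cdkn2a and Cdkn2b, which had at most 6 counts per library.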

Other observations

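Close relatives of the p53 targets were read after their values had been seen. Ccng2, the paralog of Ccng1, was higher in litter 3 by 0.53 (SE 0.14, edgeR adjusted p = 0.0141) and lower in litter 1 by -0.48 (adjusted p = 0.0473), the opposite of Ccng1 in both litters. Gadd45b was lower in litter 1 by -0.48 (SE 0.12, adjusted p = 0.0207), while Gadd45g had a range over litters of 0.14 (adjusted p = 0.892). In males minus females Gadd45b had -0.27 (SE 0.19) and Gadd45g -0.01 (SE 0.13), beside -0.36 for Gadd45a, none past the threshold (each adjusted p = 1). The differences between paralogs were not tested.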
